A study of Homo sapiens with 72 samples.

Results

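The 38 genes described here belong to the interferon response and to antigen processing and presentation. They were chosen by name, as well-known interferon-stimulated genes together with core genes of the class I antigen pathway. Earlier results of these data were known when the choice was made. The list makes up 38 of the 56304 genes that could be summed from the deposited transcript estimates. All 38 passed the filter on low counts, so all 38 were among the 20137 genes tested.

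RNA was sequenced from PEO1 cells, a long-established line derived from a high-grade serous carcinoma of the ovary, after 2 or 24 h with dimethyl sulfoxide or with 8.5 µM rucaparib. Rucaparib inhibits PARP enzymes and is itself fluorescent, so that treated cells could be ranked by the drug they held. There were 8 groups, 4 at each time. Vehicle cells had solvent and no drug and were not sorted. RucTotal cells had the drug and were not sorted. RucLow and RucHigh cells were the 20% of the treated population with the lowest and the highest drug fluorescence. Sorted cells were detached and passed through a cell sorter, whereas unsorted cells were scraped straight into lysis buffer, so that sorting and handling cannot be told apart. There was no sorted vehicle group. Each group had 3 replicates with 3 libraries each, or 72 libraries. The 3 libraries of a replicate were added together, which left 24 samples.

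Libraries held 17391033 to 38899905 estimated reads (median 33431404). Of the epithelial and serous markers, KRT7 averaged 5374 TPM, EPCAM 332.9 TPM and PAX8 55.4 TPM. TPM, the number of a gene's transcripts per 1000000 transcripts, is scaled for transcript length and allows levels of different genes to be compared. PTPRC and CD3E, which define leukocytes and T cells, averaged 0.0264 and 0.00358 TPM. DCN and LUM of fibroblasts averaged 0.0372 and 0.00473 TPM, and PECAM1 of endothelium averaged 0.0112 TPM. CDH5 (3.35 TPM) and CD14 (2.41 TPM) were the highest of the markers of other cell types. In RNA from bulk cells, fewer cells that make a transcript and less of it per cell cannot be told apart.

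Interferons are secreted when a cell senses foreign or misplaced nucleic acid. Type I and type III interferons signal through JAK1 and TYK2 to a transcription complex that contains STAT2 and IRF9 and binds interferon-stimulated response elements in the promoters of the antiviral effectors. Type II interferon acts through gamma-activated sites, and IRF1 drives much of class I antigen presentation. In that pathway the immunoproteasome cuts proteins into peptides, TAP carries the peptides into the endoplasmic reticulum, and class I heavy chains with B2M show them at the cell surface.

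The promoters of the members were searched for these elements. Windows of 300 bases, from 250 bases before to 50 bases after a RefSeq transcript start in GRCh38.p14, were searched on both strands for GAAANNGAA, the core of an interferon-stimulated response element, and for TTCNNNGAA, a gamma-activated site. Of the 38 members, 31 had at least 1 such window. GAAANNGAA was present in a window of 20 of these 31 genes (64.5%), against 9.86% of 27305 gene symbols with a window, and TTCNNNGAA in 11 of 31 (35.5%) against 9.38%. Because the members were chosen as known interferon-stimulated genes, the higher shares may follow from that choice and are not a test. A match is a run of letters and not evidence of binding. Variants of either element are missed by these strings, so a window without a match may still hold one. The 250 bases before the start are shown for 5 members that were called between treated and vehicle cells at 24 h. Each sequence is written 5′ to 3′ on the strand of its gene, with matches to either motif in capitals. Matches to the same or to the other motif can overlap, and these run together.
ISG15, chr1:1013247-1013496, plus strand: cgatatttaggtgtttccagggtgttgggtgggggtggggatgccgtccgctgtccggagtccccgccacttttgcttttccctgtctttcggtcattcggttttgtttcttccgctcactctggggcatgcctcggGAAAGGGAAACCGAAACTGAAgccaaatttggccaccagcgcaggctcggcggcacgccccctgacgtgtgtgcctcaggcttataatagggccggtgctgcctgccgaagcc
TAP1, chr6:32853705-32853954, minus strand: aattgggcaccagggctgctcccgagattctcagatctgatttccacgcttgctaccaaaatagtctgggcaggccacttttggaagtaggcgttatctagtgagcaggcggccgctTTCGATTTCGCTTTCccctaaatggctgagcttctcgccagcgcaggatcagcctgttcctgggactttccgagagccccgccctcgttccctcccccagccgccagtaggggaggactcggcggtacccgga
PSMB9, chr6:32853942-32854191, plus strand: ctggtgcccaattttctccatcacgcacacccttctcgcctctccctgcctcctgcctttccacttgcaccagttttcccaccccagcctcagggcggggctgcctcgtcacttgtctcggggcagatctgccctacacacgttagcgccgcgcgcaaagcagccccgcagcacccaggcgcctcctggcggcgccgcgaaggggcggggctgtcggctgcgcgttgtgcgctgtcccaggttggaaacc
HLA-B, chr6:31357180-31357429, minus strand: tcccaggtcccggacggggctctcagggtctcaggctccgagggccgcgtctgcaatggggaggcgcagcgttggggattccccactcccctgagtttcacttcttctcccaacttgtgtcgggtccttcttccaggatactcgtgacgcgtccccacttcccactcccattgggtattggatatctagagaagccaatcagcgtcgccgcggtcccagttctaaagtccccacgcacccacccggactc
SAMD9, chr7:93117980-93118229, minus strand: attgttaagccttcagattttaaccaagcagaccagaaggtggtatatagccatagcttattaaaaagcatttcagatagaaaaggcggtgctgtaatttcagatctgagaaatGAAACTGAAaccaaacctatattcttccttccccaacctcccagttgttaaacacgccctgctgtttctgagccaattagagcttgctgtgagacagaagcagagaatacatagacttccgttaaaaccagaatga
ISG15 held 3 overlapping matches to GAAANNGAA, which began 113, 107 and 101 bases before the start. TAP1 held 2, on the opposite strand, 133 and 127 bases before the start, and SAMD9 held 1, beginning 136 bases before it. The windows of PSMB9 and HLA-B held neither motif. PSMB9 and TAP1 are transcribed away from each other, and their starts lie 488 bases apart. IRF3, OASL, USP18, OAS2, IRF7, IFITM2 and IFIT2 had no entry.

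The members spanned 4 orders of magnitude in level, and 3 antigen presentation genes were the highest. These were B2M, HLA-C and HLA-B, which together made up 77.3% of the summed mean TPM of the 38 genes. Of the members, 13 averaged over 10 TPM, 17 between 1 and 10 TPM and 8 under 1 TPM, where the median of all genes tested was 4.06 TPM.

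**Figure D1:**
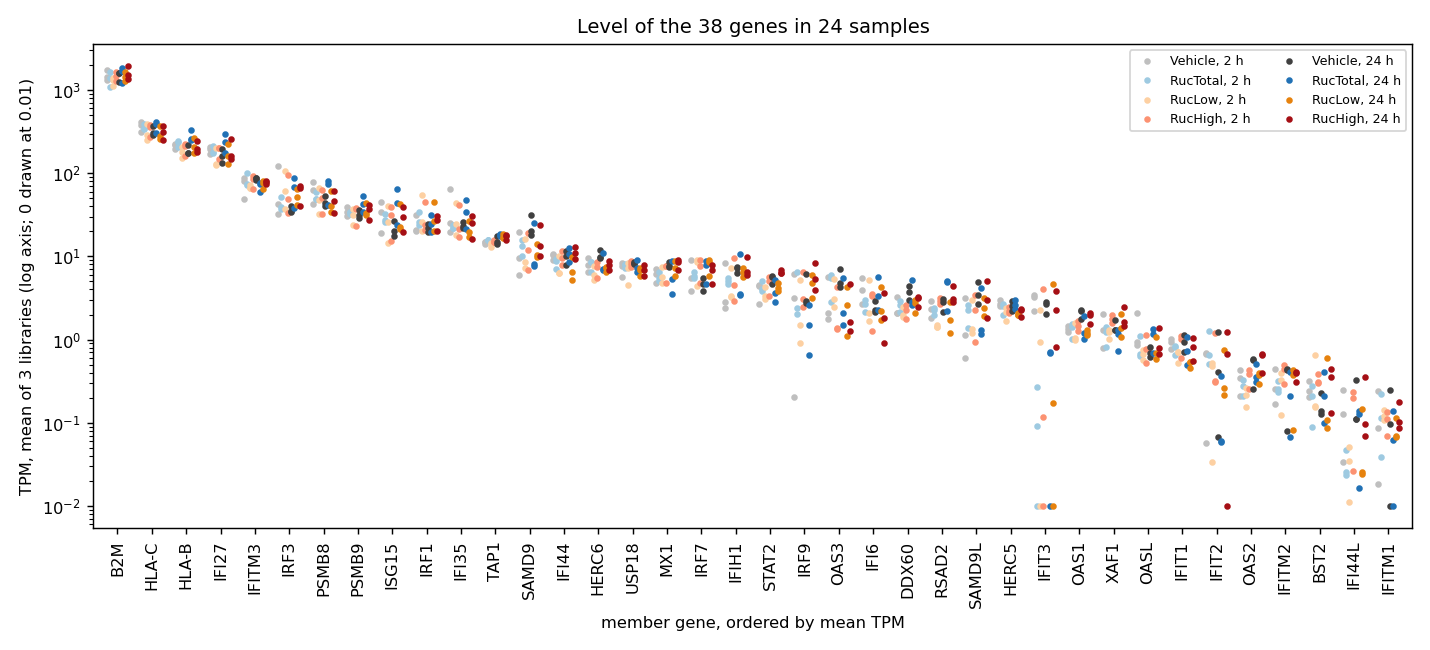
TPM of each of the 38 genes (log axis) in the 24 samples, each the mean of 3 libraries, with genes ordered by their mean and colours for the 8 groups. B2M is the highest gene in every sample, 8 genes average under 1 TPM, and IFIT3, IFIT2 and IFITM1 include samples at 0, which are drawn at 0.01.

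B2M, the light chain shared by all class I molecules, was the highest member. Its level at 2 h was 1416, 1720.0 and 1330.1 TPM in the 3 vehicle samples, 1407, 1635 and 1082 in RucTotal, 1335, 1133 and 1402 in RucLow and 1472, 1648 and 1273 in RucHigh. At 24 h the B2M values were 1625, 1620.0 and 1234 TPM in vehicle, 1713, 1849 and 1209 in RucTotal, 1290.3, 1658 and 1446 in RucLow and 1526, 1946 and 1369 in RucHigh. All 8 groups overlapped.

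HLA-C, a class I heavy chain, measured 417, 378 and 309.6 TPM in vehicle, 335, 391 and 348 in RucTotal, 291, 389.8 and 254 in RucLow and 383, 360.1 and 272 in RucHigh at 2 h. After 24 h HLA-C stood at 289, 369 and 306 TPM in vehicle, 395, 409.9 and 302 in RucTotal, 259, 369 and 282 in RucLow and 309, 373 and 248 in RucHigh. Replicate 3 was the lowest sample for HLA-C in 5 of the 8 groups. HLA-B, a second heavy chain, was at 218, 223 and 195 TPM in vehicle, 240.4, 204 and 246 in RucTotal, 177, 207 and 151 in RucLow and 223, 215 and 163 in RucHigh at 2 h. At 24 h HLA-B was at 174, 218 and 176 TPM in vehicle, 252, 329.9 and 260.3 in RucTotal, 174, 263 and 206 in RucLow and 194, 244 and 179 in RucHigh, and the RucTotal samples were then above all vehicle samples. HLA-B and HLA-C share long stretches of sequence, so the split of reads between them is uncertain.

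PSMB8 and PSMB9 encode catalytic subunits of the immunoproteasome. PSMB8 levels were 79.3, 62.5 and 42.6 TPM in vehicle, 59.3, 48.6 and 48.7 in RucTotal, 47.2, 66.5 and 32.02 in RucLow and 62.8, 50.2 and 32.8 in RucHigh at 2 h. By 24 h PSMB8 was at 44.2, 53.9 and 40.04 TPM in vehicle, 75.1, 81.6 and 42.03 in RucTotal, 34.6, 61.1 and 40.3 in RucLow and 45.9, 60.8 and 33.3 in RucHigh. The PSMB9 levels at 2 h were 34.4, 38.97 and 30.5 TPM in vehicle, 34.3, 34.5 and 32.1 in RucTotal, 31.5, 37.6 and 23.6 in RucLow and 36.98, 37.7 and 23.3 in RucHigh, and the groups overlapped for both genes. At 24 h the PSMB9 levels were 31.3, 35.6 and 28.6 TPM in vehicle, 42.8, 53.8 and 34.2 in RucTotal, 31.2, 44.2 and 33.3 in RucLow and 37.4, 42.02 and 27.6 in RucHigh. Most reads of both genes (95.6% and 94.7%) were assigned to transcripts of alternate haplotypes of the region, which were added to the gene. TAP1, a subunit of the peptide transporter, varied least of all members between libraries and ranged from 12.8 to 18.7 TPM.

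IFI27, a membrane protein of mitochondria and a strongly inducible interferon-stimulated gene, was the highest member outside antigen presentation. It measured 197, 207 and 169 TPM in vehicle, 176, 211 and 178 in RucTotal, 129.6, 204 and 125 in RucLow and 202, 202 and 148 in RucHigh at 2 h. The 24 h levels of IFI27 were 132, 196 and 159 TPM in vehicle, 239, 294 and 177 in RucTotal, 129, 227 and 162 in RucLow and 163, 255 and 146 in RucHigh. IFITM3, which blocks virus entry at endosomal membranes, was at 48.4, 88.6 and 80.2 TPM in vehicle, 71.3, 99.3 and 74.5 in RucTotal, 65.5, 66.6 and 72.7 in RucLow and 64.9, 91.4 and 86.2 in RucHigh at 2 h. Its 24 h levels were 88.1, 87.96 and 82.9 TPM in vehicle, 58.99, 73.7 and 75.6 in RucTotal, 64.01, 79.5 and 77.3 in RucLow and 73.8, 80.2 and 77.8 in RucHigh. Its near copies were almost silent, with 0 to 0.247 TPM for IFITM1 and 0.0671 to 0.501 TPM for IFITM2, although reads of 3 such similar genes can be split wrongly. IFI6 ranged from 0.920 to 5.65 TPM and BST2, the tethering factor of budding virus, from 0.0868 to 0.655 TPM.

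IRF3, a transcription factor activated downstream of nucleic acid sensors, measured 121, 42.8 and 32.1 TPM in vehicle, 51.9, 39.04 and 37.004 in RucTotal, 61.7, 106 and 36.6 in RucLow and 96.4, 48.9 and 33.6 in RucHigh at 2 h. The 24 h values of IRF3 were 40.8, 34.9 and 34.3 TPM in vehicle, 86.8, 68.9 and 38.1 in RucTotal, 51.4, 64.7 and 41.8 in RucLow and 70.9, 67.3 and 40.1 in RucHigh. IRF1, itself induced by interferon gamma, stood at 31.2, 20.2 and 20.7 TPM in vehicle, 34.1, 23.7 and 26.2 in RucTotal, 54.2, 26.2 and 20.4 in RucLow and 45.7, 23.9 and 20.6 in RucHigh at 2 h. By 24 h the IRF1 values were 24.3, 21.9 and 19.6 TPM in vehicle, 31.6, 24.5 and 19.6 in RucTotal, 45.6, 26.96 and 20.2 in RucLow and 27.7, 30.3 and 20.4 in RucHigh. The other regulators were lower. IRF7, which amplifies type I interferon production, ranged from 3.82 to 9.09 TPM, STAT2 from 2.70 to 6.78, IRF9 from 0.206 to 8.32 and the RNA sensor IFIH1 from 2.36 to 10.6 TPM.

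ISG15, a ubiquitin-like protein that is attached to other proteins, was the highest of the cytoplasmic effectors. Its TPM values were 45.3, 34.1 and 19.1 in vehicle, 31.9, 27.4 and 25.9 in RucTotal, 25.98, 40.3 and 14.4 in RucLow and 38.96, 31.4 and 15.5 in RucHigh at 2 h. By 24 h ISG15 was at 19.98, 26.6 and 17.6 TPM in vehicle, 44.2, 64.8 and 23.7 in RucTotal, 21.5, 42.1 and 22.4 in RucLow and 29.7, 39.003 and 19.7 in RucHigh. Samples of the same group differed by more than 2-fold in 4 of the 8 groups, and replicate 3 was the lowest in 7. USP18, which removes ISG15, ranged from 4.55 to 8.97 TPM. The ISG15 ligase HERC5 ranged from 1.69 to 2.99 TPM and its relative HERC6 from 5.21 to 12.1 TPM. Of the remaining effectors, IFI35 ranged from 16.2 to 65.4 TPM, SAMD9 from 5.94 to 31.3, SAMD9L from 0.606 to 5.00, IFI44 from 5.23 to 12.8, MX1 from 3.58 to 9.06, DDX60 from 1.75 to 5.16, RSAD2 from 1.20 to 5.04, XAF1 from 0.726 to 2.49 and IFI44L from 0.0110 to 0.354 TPM. Of the OAS genes whose products activate RNase L, OAS1 ranged from 0.982 to 2.30 TPM, OAS2 from 0.155 to 0.668 and OAS3 from 1.09 to 7.09 TPM. The related OASL ranged from 0.521 to 2.06 TPM. IFIT1, which binds foreign RNA ends, ranged from 0.450 to 1.13 TPM, IFIT2 from 0 to 1.28 and IFIT3 from 0 to 4.63 TPM.

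Estimates of some members changed greatly between the 3 libraries of the same replicate. The labels do not say whether these libraries came from separate wells or from the same RNA, so that this range may be biological or technical. Over the 13654 tested genes of at least 1 CPM, the range between the libraries of a replicate had a median of 0.32 on the log2 scale, and 95% of genes lay under 0.91. CPM is counts per 1000000 reads after TMM scaling. For IFIT3 this range was 4.43, for IFIT2 2.38, for OAS3 1.88 and for IRF9 1.57, whereas for TAP1 it was 0.16. IFIT3 was at 0 in 41 of 72 libraries and reached 665 reads in another, and IFIT2 was at 0 in 22 libraries. OAS3 ranged from 0.830 to 54.1 RPM (reads per 1000000) over the libraries.

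**Figure D2:**
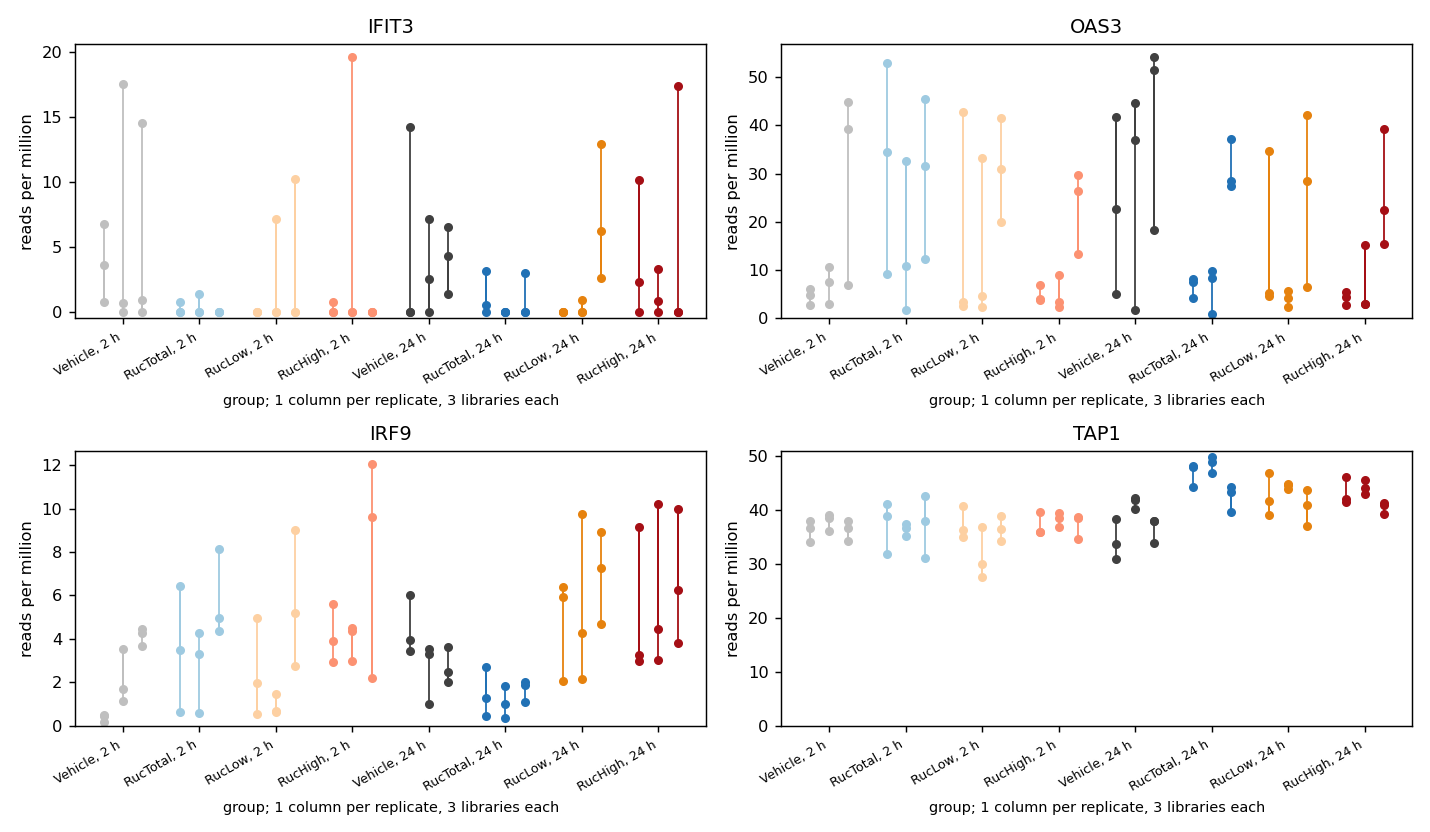
RPM in each of the 72 libraries for IFIT3, OAS3, IRF9 and TAP1, with 1 column for each replicate and a line joining its 3 libraries, which carry the same replicate number. IFIT3 jumps between 0 and up to 19.6 RPM within a replicate, OAS3 and IRF9 have median ranges of 1.88 and 1.57 on the log2 scale within a replicate, against 4.43 for IFIT3 and 0.16 for TAP1.

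The first comparison asks which members differ between drug-treated and vehicle cells that were both left unsorted. At 2 h none of the 38 members passed the threshold, a Benjamini-Hochberg adjusted p under 0.05 in edgeR's quasi-likelihood test over all genes, while 0.0248% of all genes were called. With the replicate number as a block in the model the background was 0.144% and no member was called, and with each sample's mean transcript length as a further term IFI27 was called higher (0.29, adjusted p = 0.039, with 0.39, 0.03 and 0.38 in the replicates). In the fit with length, 123 of all 20137 genes were called higher and 108 lower. Of the members, 1 had an unadjusted p under 0.05, and neither DESeq2 nor limma called any. Their median log2 fold change was 0.04, beside 0.01 over all genes tested, and 21 of 38 were above 0. The lowest unadjusted p belonged to IFIT3, which measured 3.94, 7.38 and 5.22 CPM in vehicle and 0.317, 0.531 and 0 CPM in RucTotal. The groups did not overlap, the fitted log2 fold change was -4.28 ± 1.95 (adjusted p = 0.74), and single libraries of the vehicle group lay at 0 as well.

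At 24 h, 3 members rose and none fell in RucTotal relative to vehicle, against 3.35% of all genes called in either direction. They were IRF7 (chromosome 11, 612553 to 615999 in GRCh38), HLA-B (chromosome 6, 31269491 to 31357188) and TAP1 (chromosome 6, 32845209 to 32853978). HLA-B and TAP1 belong to antigen presentation, and IRF7 is a transcription factor. Of all 38 members, 18 were above 0, and their median was -0.05, beside 0.03 over all genes.

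IRF7 measured 12.7, 11.6 and 10.8 CPM in vehicle and 21.5, 22.8 and 15.5 CPM in RucTotal, without overlap. The log2 fold change was 0.77 ± 0.18 (SE, n = 3 a group, edgeR adjusted p = 0.027), and it was 0.76, 0.98 and 0.52 in the 3 replicates. In TPM, the lowest RucTotal sample of IRF7 (4.61) lay below the highest vehicle sample (5.56), so the groups overlapped on that scale. Nearly all of the IRF7 reads (99.8%) were assigned to transcripts of an alternate haplotype. HLA-B went from 262, 306 and 263 CPM in vehicle to 419.9, 548 and 356 CPM in RucTotal, and again the groups did not overlap. Its log2 fold change was 0.67 ± 0.17 (edgeR adjusted p = 0.04), with replicate differences of 0.68, 0.84 and 0.44. TAP1 went from 36.1, 44.3 and 38.9 CPM to 53.2, 55.8 and 44.8 CPM, the smallest of the 3 rises and the one with the smallest SE, at 0.36 ± 0.09 (edgeR adjusted p = 0.035). Every RucTotal sample of TAP1 was above every vehicle sample. These calls were lost without replicate 1 or without replicate 2, when no member passed, whereas 7 passed without replicate 3.

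With the replicate block, 24.0% of all genes were called at 24 h, and 11 of the 38 members were, 6 higher and 5 lower. Besides IRF7, HLA-B and TAP1, the higher members were ISG15, PSMB9 and IRF3. The lower ones were SAMD9, SAMD9L, OAS3, OAS1 and HERC6. SAMD9 and SAMD9L, neighbouring genes whose products restrict viruses and cell growth, lie side by side on chromosome 7.

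ISG15 measured 12.3, 15.4 and 11.9 CPM in vehicle and 36.9, 51.8 and 17.98 CPM in RucTotal. In CPM the 3 treated samples were above the 3 vehicle samples but differed widely among themselves, while in TPM the groups overlapped. The blocked log2 fold change of ISG15 was 1.32 (edgeR adjusted p = 0.0073, against 0.072 without the block). PSMB9 rose in the same way, from 17.9, 20.6 and 17.4 CPM to 30.8, 38.9 and 21.6 CPM, and its groups also overlapped in TPM. Its blocked change was 0.68 (edgeR adjusted p = 0.0059). IRF3 had 67.4, 62.5 and 56.04 CPM in vehicle and 116, 104 and 62.6 CPM in RucTotal, so that its replicate 3 did not leave the vehicle range (blocked change of 0.56, adjusted p = 0.029). SAMD9 fell from 77.2, 84.7 and 96.3 CPM to 33.7, 36.001 and 70.2 CPM, with a blocked change of -0.95 (edgeR adjusted p = 0.0025). SAMD9L went from 10.9, 12.8 and 14.9 CPM to 4.73, 6.16 and 11.7 CPM, which overlapped (blocked change of -0.86, adjusted p = 0.01). OAS1, one of the RNase L activators, was at 3.32, 5.05 and 4.65 CPM in vehicle and 2.43, 3.10 and 3.91 CPM in RucTotal (blocked change of -0.46, adjusted p = 0.009). OAS3 was at 24.6, 29.7 and 44.4 CPM and 7.54, 7.48 and 32.5 CPM, with the unstable library values given above (blocked change of -1.42, adjusted p = 0.029). HERC6 moved least, from 28.8, 29.02 and 30.5 CPM to 23.3, 24.4 and 28.4 CPM (blocked change of -0.22, adjusted p = 0.046). In each of these 11 genes the 3 replicates had the same sign, and the difference was smallest in replicate 3.

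**Figure D3:**
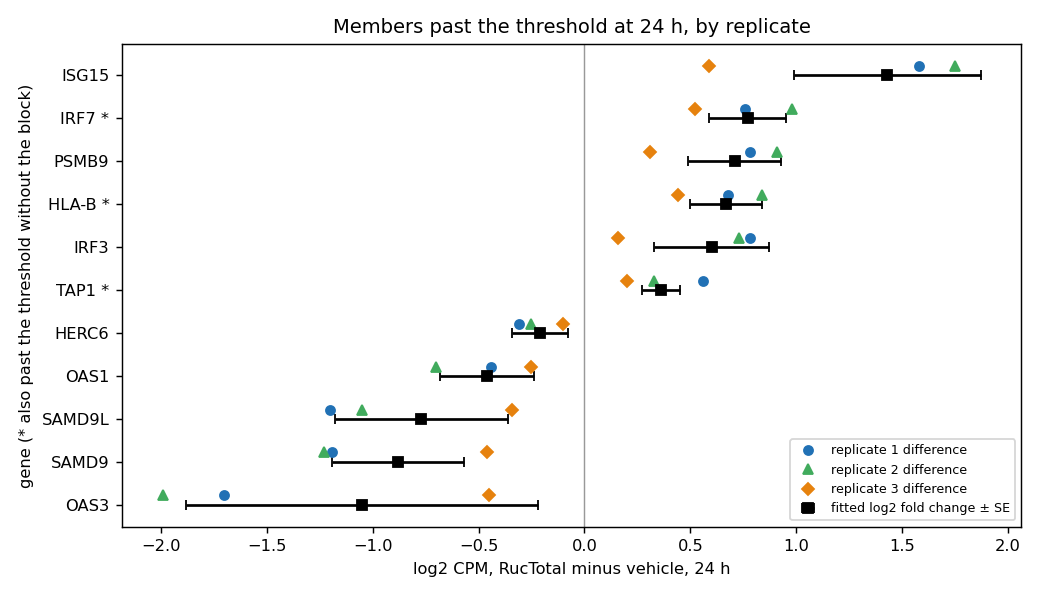
Difference in log2 CPM between RucTotal and vehicle at 24 h for the 11 members past the threshold with the replicate block, with the fitted log2 fold change and its SE (squares) and the difference within each replicate. All 3 replicates lie on the same side of 0 for each gene, and replicate 3 (diamonds) is the nearest to 0 in all 11.

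Transcript length moved with these values. The members called higher with the block have short transcripts, as weighted by reads, of 701 bases for ISG15, 809 for PSMB9, 1506 for HLA-B, 1558 for IRF3, 1718 for IRF7 and 2397 for TAP1. Those called lower have longer ones, of 2712 bases for OAS1, 3751 for HERC6, 5951 for OAS3, 6275 for SAMD9L and 6789 for SAMD9. Of the 18 members under 2000 bases, 13 were above 0 with a median log2 fold change of 0.37, and of the 20 longer ones 5 were above 0 with a median of -0.33. Over all genes without the block, the 442 called higher had a median length of 1881 bases and the 232 called lower of 4311 bases, beside 2323 for all tested.

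The read-weighted mean transcript length of whole samples also differed between the groups. In RucTotal it was 2746 and 2711 bases in replicates 1 and 2, against 3120 and 3107 bases in vehicle, but in replicate 3 it was 3229 against 3231 bases. Within replicate 3 alone, where the mean lengths were alike, 9 of the 18 short members were above 0 (median 0.01) and 7 of the 20 longer ones (median -0.20). There the differences were 0.52 for IRF7, 0.44 for HLA-B, 0.20 for TAP1, 0.59 for ISG15 and -0.46 for SAMD9. With the mean length as a covariate beside the block, 624 of all 20137 genes were called higher and 551 lower. Of the members, IRF7 (0.51, edgeR adjusted p = 0.0056) and HLA-B (0.37, adjusted p = 0.017) were called higher and SAMD9 (-0.54, adjusted p = 0.037) lower in that fit. TAP1 then had 0.28 (adjusted p = 0.083) and ISG15 0.56 (adjusted p = 0.14), and the other 6 of the 11 genes were not called either. The part of transcript length in these differences was not otherwise tested.

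**Figure D4:**
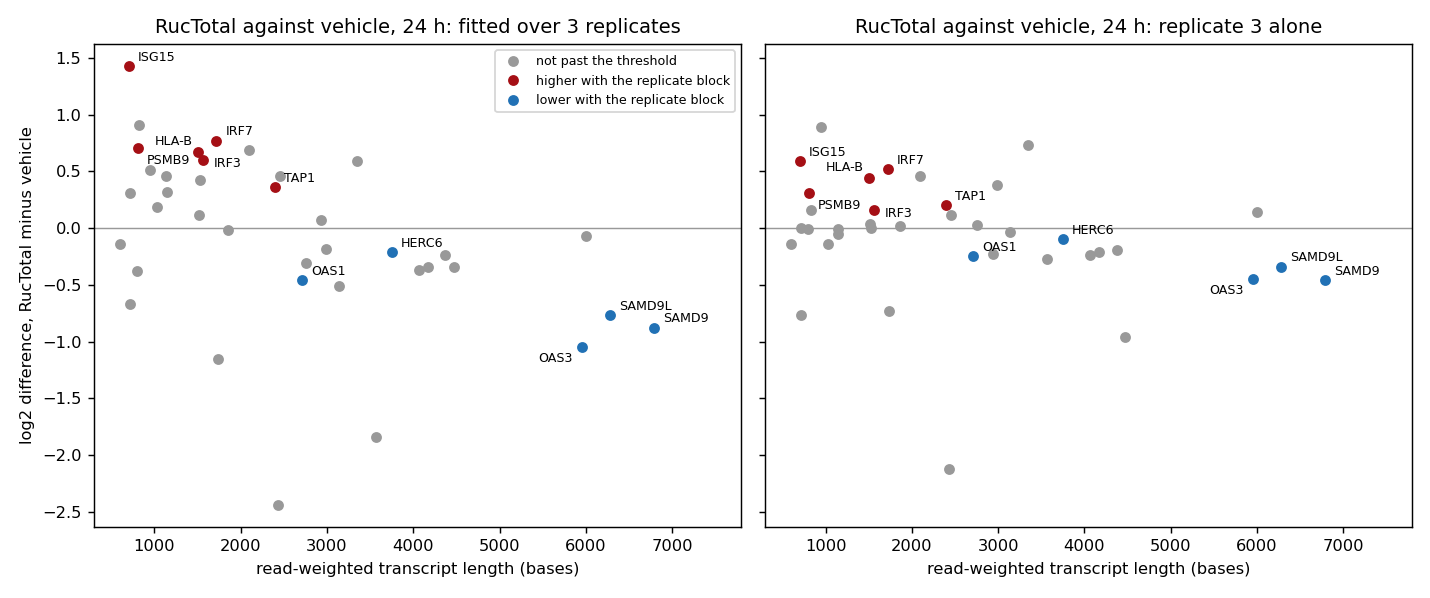
Log2 difference between RucTotal and vehicle at 24 h against the read-weighted transcript length of each of the 38 genes, fitted over 3 replicates (left) and in replicate 3 alone (right), with colours for calls made with the replicate block. On the left the 18 genes under 2000 bases have a median of 0.37 and the 20 longer ones of -0.33, and on the right the medians are 0.01 and -0.20.

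The remaining regulators and effectors did not pass at 24 h. STAT2 had -0.37 ± 0.17 (edgeR adjusted p = 0.19), IRF9 -1.15 ± 0.61 (adjusted p = 0.25), IRF1 0.46 ± 0.34 (adjusted p = 0.41) and the sensor IFIH1 -0.18 ± 0.29 (adjusted p = 0.73). Of the antigen presentation members, HLA-C had 0.42 ± 0.19, PSMB8 0.46 ± 0.29 and B2M 0.19 ± 0.26, so that all 6 of this role were above 0, with a median of 0.44. In replicate 3 alone 4 of the 6 were above 0 with a median of 0.10, and with transcript length beside the block the median was 0.16, with -0.13 for PSMB8 and -0.13 for B2M. The antiviral GTPase MX1 had -0.31 ± 0.21, RSAD2 0.59 ± 0.30, USP18 -0.02 ± 0.13, HERC5 0.07 ± 0.18 and DDX60 -0.07 ± 0.15. The membrane proteins IFI27, IFI6 and IFITM3 had 0.31 ± 0.22, 0.91 ± 0.53 and -0.14 ± 0.16. IFIT3 was at 4.85, 3.69 and 4.37 CPM in vehicle and 1.38, 0 and 0.987 CPM in RucTotal, lower without overlap as at 2 h, at -2.44 ± 1.76 (adjusted p = 0.4). Its 2 sister genes had -0.24 ± 0.26 for IFIT1 and -1.84 ± 1.22 for IFIT2.

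Whether the drug effect itself changed between 2 and 24 h was tested by the interaction. No member passed, against 0.139% of all genes, although 11 members had an unadjusted p under 0.05, and DESeq2 and limma also called none. With the block, 18% of all genes and 13 members were called, 5 of them higher (ISG15, IRF3, IRF7, PSMB9 and HLA-B) and 8 lower (SAMD9, SAMD9L, XAF1, OAS1, OAS3, IFITM3, STAT2 and IRF9). The largest rises were ISG15 at 1.44 (edgeR adjusted p = 0.034), IRF3 at 0.74 and IRF7 at 0.72 (adjusted p = 0.012). The falls were larger in size, with OAS3 at -2.75 (adjusted p = 0.012), IRF9 at -2.19 (adjusted p = 0.046), SAMD9L at -1.36 (adjusted p = 0.011) and SAMD9 at -1.21 (adjusted p = 0.0094). OAS3 and IRF9 have the unstable library values given above. By replicate they had -4.44, -3.03 and -0.42 for OAS3 and -4.73, -1.42 and -1.31 for IRF9. SAMD9L had -2.40, -1.69 and -0.14 and SAMD9 -2.02, -1.53 and -0.17. With transcript length beside the block, SAMD9 (-0.77, adjusted p = 0.036) and SAMD9L (-0.86, adjusted p = 0.046) were still called and the other 11 were not, ISG15 among them (0.64, adjusted p = 0.19). Over all 20137 genes that fit called 315 higher and 447 lower. In replicate 3 alone the ISG15 interaction was -0.00 and that of IRF7 0.15, against 2.08 and 0.93 in replicate 1.

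Vehicle cells were compared between the times, because they enter both drug comparisons. No member passed at 24 h against 2 h, with 0.0248% of all genes called and 8 members at an unadjusted p under 0.05, and none by DESeq2 or limma. With the block 9.42% of all genes and 6 members were called. HERC6 (0.29), SAMD9 (0.86), SAMD9L (1.08), OAS1 (0.41) and OAS3 (1.45) were higher at 24 h and IRF7 (-0.38) was lower. This comparison and that of RucTotal with vehicle at 24 h share the 24 h vehicle samples. In CPM, SAMD9 stood at 27.4, 53.5 and 68.6 in vehicle at 2 h and 48.8, 65.6 and 56.3 in RucTotal at 2 h, so that their means lay nearer to that of RucTotal than to that of vehicle at 24 h. IRF7 stood at 19.5, 14.8 and 12.1 CPM in vehicle and 17.3, 13.998 and 15.6 CPM in RucTotal at 2 h. Mean transcript lengths of the vehicle samples were 2729, 2747 and 3078 bases at 2 h and 3120, 3107 and 3231 bases at 24 h. With that length as a covariate beside the block no member was called, and of all 20137 genes only 2 were called higher and 4 lower.

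The second question of the design is whether cells that held more drug differed from cells of the same treated culture that held less. No member passed at 2 h, where 0.00497% of all genes were called, or at 24 h, where 0.109% were. With the block the shares of all genes were 0.377% and 0.611%, and again no member was called, nor by DESeq2 or limma. At an unadjusted p under 0.05 there were 3 members at 2 h and 4 at 24 h. At 2 h, 35 of 38 members were above 0 with a median of 0.22, beside 49.5% of all genes above 0 and a median of -0.00, and at 24 h 27 members were above 0 with a median of 0.08, beside 48.3% and -0.01. By replicate, the members above 0 at 2 h numbered 32, 29 and 30, with medians of 0.23, 0.24 and 0.08. At 24 h they numbered 31, 25 and 19, with medians of 0.26, 0.09 and 0.02. Members share samples and are not independent of each other, so these counts describe the list and carry no test.

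RSAD2, which encodes the antiviral enzyme viperin, was the member with the largest difference at 2 h without the block. It measured 3.27, 3.32 and 2.80 CPM in RucLow and 5.43, 7.67 and 5.00 CPM in RucHigh at 2 h, without overlap. Its log2 fold change was 0.95 ± 0.30 (edgeR adjusted p = 0.88, and 0.068 with the block), with 0.73, 1.20 and 0.83 in the 3 replicates. The same gene had 2.59, 6.05 and 3.48 CPM in RucLow and 5.84, 9.27 and 5.25 CPM in RucHigh at 24 h, a difference of 0.75 ± 0.30 with overlapping groups (edgeR adjusted p = 1). At 2 h the means of unsorted cells lay between those of the sorted groups, at 4.97 ± 0.549 CPM in RucTotal and 5.42 ± 1.08 CPM in vehicle (mean ± SD, n = 3).

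OAS2 was at 1.03, 1.27 and 1.22 CPM in RucLow and 1.54, 2.25 and 2.12 CPM in RucHigh at 24 h, a difference of 0.75 ± 0.31 without overlap (edgeR adjusted p = 1, 0.067 with the block). STAT2, part of the interferon-activated transcription complex, was at 14.8, 14.7 and 14.8 CPM in RucLow and 20.3, 20.2 and 19.5 CPM in RucHigh, with replicate differences of 0.45, 0.46 and 0.40 (adjusted p = 0.97). IFI44 differed by 0.53 ± 0.24 at 2 h and 0.48 ± 0.24 at 24 h, and IFIT1 by 0.45 ± 0.27 and 0.55 ± 0.27. For both genes all 3 replicates were above 0 at both times, yet the samples of the sorted groups overlapped. OAS3 went the other way at 2 h, at -0.89 ± 0.83 (edgeR adjusted p = 1), with -1.62, -1.59 and -0.41 in the replicates and -1.20 with the block, the largest in size of the 38 in that fit. XAF1, which promotes apoptosis, differed by 0.49 ± 0.24 at 2 h without overlap, with replicate values of 0.64, 0.46 and 0.39 (edgeR adjusted p = 1). For the antigen presentation members the median was 0.12 at 2 h and -0.03 at 24 h, with 0.16 ± 0.17 and -0.07 ± 0.17 for HLA-B. IRF7 was -0.21 ± 0.18 at 24 h, lower in RucHigh in all 3 replicates and without overlap (adjusted p = 1).

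**Figure D5:**
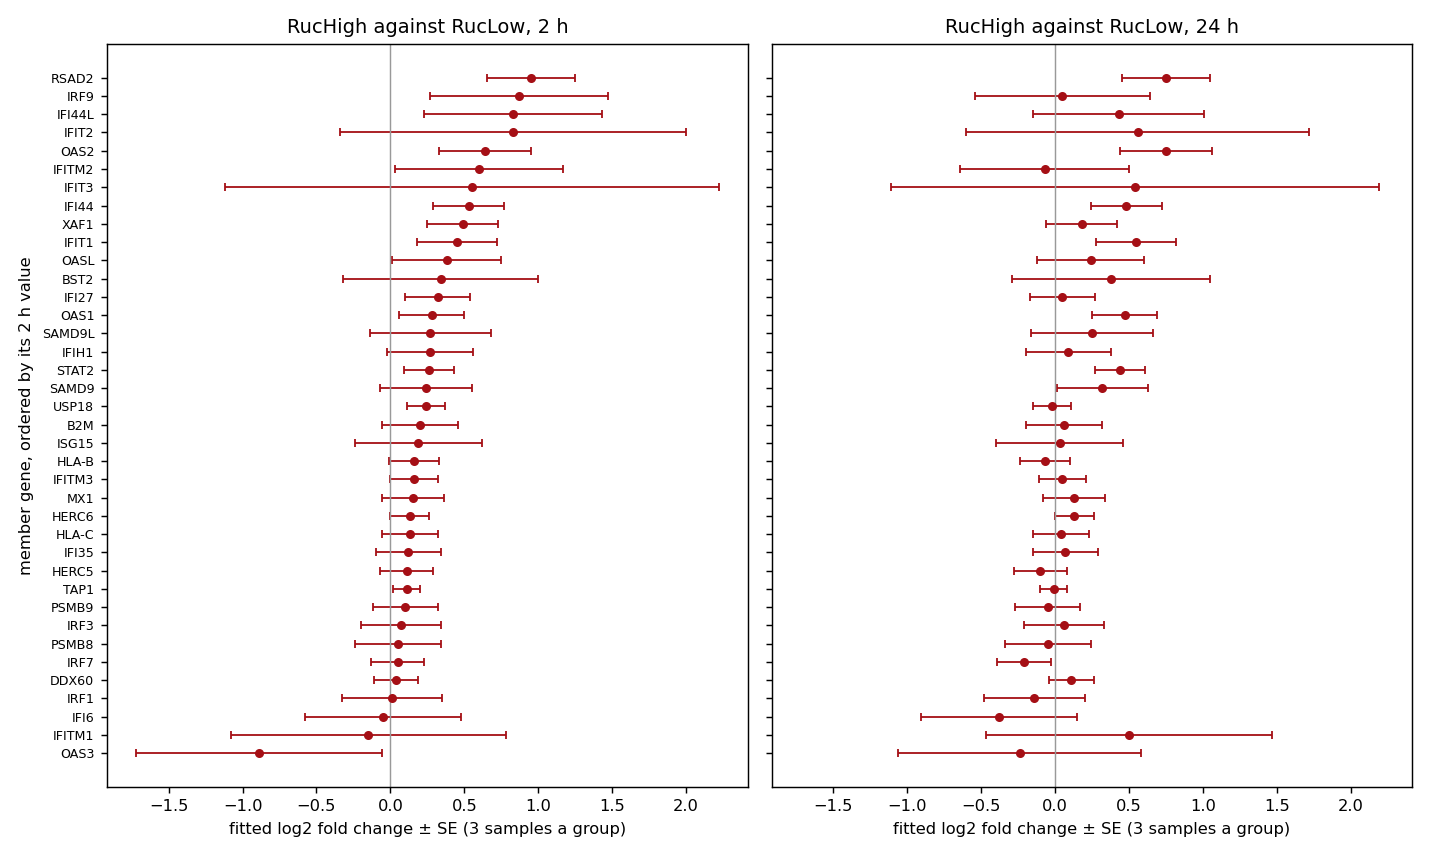
Fitted log2 fold change of RucHigh against RucLow with its SE for each of the 38 members at 2 h (left) and 24 h (right), in the order of the 2 h values. At 2 h 35 of the 38 points and at 24 h 27 lie above 0, and no gene passed the threshold at either time.

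With mean transcript length beside the block, RSAD2 (edgeR adjusted p = 0.046) and IFI27 (adjusted p = 0.028) were called higher in RucHigh at 2 h, and OAS2 (adjusted p = 0.027) at 24 h. Their changes in that fit were 0.92, 0.32 and 0.69. The same fit called more genes of any kind than the block alone did. Of all 20137 genes, 145 rose in RucHigh and 9 fell at 2 h, and the totals for 24 h were 206 and 26. Under the block alone, 76 genes passed at 2 h and 123 passed at 24 h. IFI27 had a blocked edgeR adjusted p of 0.45 at 2 h. Mean transcript lengths at 2 h were 2736, 2930 and 3105 bases in RucHigh and 2912, 2810 and 3082 bases in RucLow, and at 24 h they were 3037, 3005 and 3142 bases and 3079, 2984 and 2994 bases.

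Sorted cells, the mean of RucLow and RucHigh, were compared with unsorted treated cells to show what differed with the sort and its handling. The middle of the fluorescence range was present in RucTotal and in neither sorted group. At 2 h no member passed, with 2.41% of all genes called and 3 members at an unadjusted p under 0.05, and DESeq2 and limma called none. With the block 14.9% of all genes and 4 members were called, all lower in sorted cells: IFI27 (-0.44, edgeR adjusted p = 0.0077), HERC6 (-0.27), IFITM3 (-0.24) and OAS3 (-1.12). At 24 h, 9.47% of all genes and 1 member were called. That was IRF9, at 1.67, 1.30 and 1.73 CPM in RucTotal, 4.71, 5.65 and 7.26 CPM in RucLow and 5.27, 6.03 and 7.01 CPM in RucHigh. The difference was 1.93 ± 0.57 (edgeR adjusted p = 0.039), and vehicle cells at 24 h had 4.72, 2.80 and 2.90 CPM. IRF9 estimates differed several-fold between libraries of a replicate, and the call was lost whichever of the 3 replicates was left out, at 1.93 with all of them and 1.85 to 2.09 without one.

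With the block, 24.7% of all genes and 14 members were called at 24 h, 3 higher and 11 lower in sorted cells. Besides IRF9, the higher ones were XAF1 (0.64, edgeR adjusted p = 0.0081) and SAMD9L (0.57, adjusted p = 0.037). The lower ones included 5 of the 6 antigen presentation members, with -0.51 for PSMB8, -0.50 for PSMB9, -0.49 for HLA-C, -0.43 for HLA-B and -0.23 for TAP1. The other 6 were ISG15 (-0.90), IFI6 (-0.96), RSAD2 (-0.54), IFI35 (-0.51), IRF7 (-0.30) and HERC6 (-0.27). With transcript length beside the block, 1655 of all 20137 genes were called higher and 2011 lower. Of these 14 members, 8 kept a call in that fit, namely IRF9, XAF1, HERC6, RSAD2, IFI35, PSMB9, HLA-B and HLA-C. Those that lost it were PSMB8 (-0.20, adjusted p = 0.13), TAP1 (-0.18, adjusted p = 0.082), ISG15 (-0.47, adjusted p = 0.054), IFI6 (-0.56, adjusted p = 0.17), IRF7 (-0.16, adjusted p = 0.17) and SAMD9L (0.31, adjusted p = 0.13), and DDX60 (-0.34, adjusted p = 0.043) was called in addition. This comparison and that of RucTotal with vehicle share the RucTotal samples. HLA-B at 24 h averaged 277 ± 25.2 CPM in vehicle, 441 ± 97.6 in RucTotal, 334 ± 65.97 in RucLow and 318 ± 46.5 in RucHigh (mean ± SD, n = 3). For ISG15 these means were 13.2 ± 1.90, 35.6 ± 16.95, 17.9 ± 6.43 and 18.3 ± 6.05 CPM, and the means of both sorted groups lay between those of the unsorted ones. The mean transcript length of the sorted samples at 24 h was 2984 to 3142 bases, against 2746, 2711 and 3229 bases in RucTotal, and its part in these differences was not tested beyond the fit with length.

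The rest of the pathway was followed through lists of ligands, receptors and further target genes. None of 12 interferon genes passed the filter on low counts. IFNL1, the highest, averaged 0.0331 TPM and 2.71 reads of the 87969341 to 107683767 in a sample, and IFNB1 averaged 0.0833 reads. The receptors were present, with mean levels of 2.86 TPM for IFNAR1, 6.27 for IFNAR2, 28.6 for IFNGR1, 14.4 for IFNGR2, 1.96 for IFNLR1 and 7.47 for IL10RB. The kinases JAK1 and TYK2 averaged 29.8 and 22.1 TPM. Of the nucleic acid sensors, CGAS, which makes the messenger that follows cytosolic DNA, averaged 7.77 TPM and MAVS, the adaptor of the RNA sensors, 16.8 TPM. Over matched transcripts, DDX58, the RNA sensor RIG-I, averaged 0.0436 TPM, and AIM2 was at 0 reads in all samples.

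At 24 h in RucTotal against vehicle, 1 of 15 receptor, kinase and STAT genes passed, and it was lower. This was JAK2, at -0.74 ± 0.19 (edgeR adjusted p = 0.04), a kinase of the interferon gamma receptor with a long transcript of 6744 bases. Of the receptors, IFNAR1 had -0.35 ± 0.22, IFNAR2 -0.18 ± 0.26, IFNGR1 -0.87 ± 0.34 and IFNGR2 0.08 ± 0.14, none of them called. With the block IFNGR1 was called lower (-0.90, adjusted p = 0.0024), 1 of 3 genes of that list, and with length beside the block it had -0.64, adjusted p = 0.063. Among 13 tested sensing genes 1 was higher, IRF5 at 0.59 ± 0.15 (adjusted p = 0.038). Among 50 further interferon-stimulated genes 2 were lower, GBP4 at -0.79 ± 0.21 (adjusted p = 0.047) and DDX60L at -0.50 ± 0.10 (adjusted p = 0.017), and the median of the list was -0.12. With the block 5 genes of that list were higher and 11 lower, beside 24.0% of all genes called. With transcript length as well these were 1 and 3, beside 624 higher and 551 lower of all 20137 genes. From the list of further antigen presentation genes, MICA, a stress ligand of natural killer cells, rose by 0.38 ± 0.09 (adjusted p = 0.022), and CIITA, the regulator of class II genes, was at -0.82 ± 0.20 (adjusted p = 0.033). With the block and transcript length together, MICA (0.33, adjusted p = 0.038) and GBP4 (-0.55, adjusted p = 0.036) were called, and JAK2 (-0.35, adjusted p = 0.099), IRF5 (0.29, adjusted p = 0.075), DDX60L (-0.41, adjusted p = 0.055) and CIITA (-0.73, adjusted p = 0.075) were not.

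With edgeR none of the 106 pathway genes tested passed in RucTotal against vehicle at 2 h, in the interaction, between vehicle times or between RucHigh and RucLow at 2 or 24 h, where 5, 24, 19, 9 and 5 of them had an unadjusted p under 0.05. DESeq2 called 1, 6, 2, 0 and 2 of these genes in the same order, and limma called none. With the block, the receptor, sensing, interferon-stimulated and antigen presentation lists had 4, 1, 14 and 8 called genes in the interaction and 4, 0, 8 and 2 between vehicle times, and CMPK2 was lower in RucTotal at 2 h (-0.50, edgeR adjusted p = 0.042). With the block, TNFSF10, which encodes the death ligand TRAIL and is induced by interferon, was higher in RucHigh by 1.41 at 2 h (edgeR adjusted p = 0.0049) and 1.67 at 24 h (adjusted p = 0.00084), the only such gene of these lists in that comparison. Its replicate differences were 1.47, 1.43 and 1.28 at 2 h and 1.47, 1.79 and 1.69 at 24 h. In sorted against unsorted treated cells lower genes of the antigen presentation list were, at 2 h, SPPL2A (-0.44 ± 0.07), a protease that cleaves the class II invariant chain, and the constitutive proteasome subunit PSMB6 (-0.59 ± 0.13). At 24 h they included the constitutive subunit PSMB5 (-0.66 ± 0.19) and SPPL2A (-0.25 ± 0.07). TBK1, the kinase that activates IRF3, was higher in sorted cells at 24 h by 2.13 ± 0.55 (edgeR adjusted p = 0.022). Its level was low, at a mean of 2.82 TPM and 164 reads per sample over all groups. Of the further interferon-stimulated genes, DDX60L was higher by 0.30 ± 0.09 and SHISA5 was at -0.31 ± 0.08.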

How the data were processed

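The authors trimmed reads with cutadapt 4.7 and quantified transcripts with Salmon on GRCh38, per the labels, and deposited a table of estimated counts and TPM per transcript for each of 72 libraries; the Salmon version is not given in the sources used here. Transcripts were added up to genes with GENCODE and HGNC names. Of 257369 transcripts 51256 had no match, and these held 7.10 to 8.95% of the reads. Their reads were added to no gene, so the level of some genes may be too low. The 3 libraries of each replicate were treated as repeats of 1 sample, summed for counts (then rounded) and averaged for TPM. The labels do not say whether replicates came from separate cultures, so p-values measure only the spread between these samples, which may be technical.

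edgeR 4.0.16 (R 4.3.3) fitted all 24 samples and 20137 genes with filterByExpr, TMM scaling and the quasi-likelihood test, and called an adjusted p under 0.05. DESeq2 1.42.0, limma 3.58.1 on log2(TPM + 1), other filters, scalings, samples and covariates were alternatives, and 2 of them (leaving out libraries under 2800 bases in mean length, and leaving out a replicate within the block) were chosen after seeing the data. The scripts were tested on simulated data.

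The replicate numbers were also used as a block: the study's reporting summary puts the replicates of its imaging and sorting experiments on different days, but does not name the sequenced samples. Same-numbered samples deviated together with a median correlation of 0.29 (84 pairs, 74 over 0.1, lowest -0.063), against -0.12 for different numbers. Replicate values are given for the 10 members of highest TPM and for up to 10 members per comparison that passed the threshold, without or with the block. The members and lists were chosen with earlier results of these data known. Single values of some listed genes that are not members are not reported here.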

Additional observations from a re-analysis of the deposited data

Results flagged for a closer look

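Of 32 ends of the range tested over the 9 libraries of each group, 1 stood apart. Library 2 of RucLow replicate 2 at 2 h had a mean transcript length of 2351 bases, against 2792 bases for the nearest library and 3172 bases at the other end of its group. Such a gap appears in about 1 in 20 groups by chance if libraries are independent. Libraries of the same replicate may not be. The library that stood apart also had the fewest reads of all libraries (17391033) and the most genes detected (32254). Its mitochondrial share of reads was 0.353%, against 1.56 to 4.89% in the other libraries of RucLow at 2 h. The cause was not tested. Without libraries under 2800 bases, edgeR called 0 members between RucHigh and RucLow at 2 h, as it did with all libraries, where 3 members had an unadjusted p under 0.05 and DESeq2 and limma called none.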

How the results depend on the processing

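Over 816 alternative values of single members, 662 kept their direction and their side of the threshold, 123 passed it newly, 28 no longer passed and 3 changed sign. The 3 were XAF1 in the interaction with an effective length offset (0.00), IFITM3 in sorted against unsorted cells at 2 h without libraries under 2800 bases (0.07) and IRF7 in sorted against unsorted cells at 24 h with limma on TPM (0.02).

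With the replicate block, the members called numbered 11 instead of 3 between RucTotal and vehicle at 24 h, 13 instead of 0 in the interaction, 6 instead of 0 between vehicle times, 4 instead of 0 for sorted against unsorted cells at 2 h and 14 instead of 1 at 24 h, and the block called no member in the other comparisons. With block and transcript length together the counts were 1 (IFI27) for RucTotal against vehicle at 2 h, 2 and 1 for RucHigh against RucLow at 2 and 24 h, 2 in the interaction, and 7 and 9 for sorted against unsorted cells at 2 and 24 h. Of all 20137 genes that fit called, in the same order, 123, 145, 206, 315, 1837 and 1655 higher. Those it called lower numbered 108, 9, 26, 447, 2979 and 2011.

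For RucTotal against vehicle at 24 h, DESeq2 called 6 members, and 0 were called with only the compared groups, with limma on TPM or with an effective length offset. Leaving out a replicate gave 0 to 7, and 0 to 15 with the block (5 without replicate 1, 0 without replicate 2, 15 without replicate 3). In the interaction this gave 0 to 8, and with the block 14 without replicate 3. Between vehicle times the block gave 6 without replicate 3, and for sorted against unsorted cells at 2 h it gave 1 without replicate 1. For sorted against unsorted cells at 24 h the counts were 2 with a filter of 1 CPM or with none, 5 with DESeq2, 0 with limma or the length offset, 3 without libraries under 25000000 reads, 4 without those under 2800 bases, 0 to 5 without a replicate, and 2, 0 and 14 with the block and without replicate 1, 2 or 3. The causes were not tested.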
